A study of Arabidopsis thaliana with 16 samples.

Results

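The mctp4-1 mutant of Arabidopsis thaliana was compared with wild type (WT) in roots of 5-day-old seedlings, over 8 libraries of messenger RNA. All genes with at least 1 FPKM (fragments per gene, corrected for library size and transcript length) in 4 or more of the 16 libraries of the study were members, 19239 of 33560 genes in all, and the choice used no difference between genotypes. Each group has 4 libraries of the Col-0 ecotype: WT, plants with mctp4-1 (line Salk_089046C), plants with mctp3-2 (line GABI_285E06), and plants with both alleles (double). Both lines are from T-DNA insertion collections, so each single mutant is 1 line. Seedlings stood on MS plates in 16 h of light and 8 h of dark at 21 °C, after 2 days of cold in the dark. The labels do not say whether the WT seed stock is that of the mutant lines, so an effect of an allele and a difference between stocks cannot be told apart. They do not say either whether the 4 replicates came from separate cultures, so every p-value rests on differences among libraries that could be technical in part. A level here is a level in bulk root RNA, so fewer cells of a type and less RNA per cell cannot be told apart.

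MCTP4 and MCTP3 encode proteins with multiple C2 domains and transmembrane regions. Such proteins sit in the endoplasmic reticulum and can hold it against the plasma membrane, and several are found in plasmodesmata, the channels that join neighbouring plant cells. The C2 domains bind anionic lipids of the plasma membrane, phosphoinositides among them, which phosphatidylinositol 4-kinases help to make.

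The coding sequences of MCTP4 and MCTP3 are much alike, which matters for telling their reads apart. Over 2331 aligned columns, 1993 bases (85.5%) are identical, and the longest identical run has 60 bases. The most and the least alike stretches of 90 bases are shown, from the TAIR10.1 genome of RefSeq and read on the minus strand, with capitals at the bases that differ between the genes. The first pair (chr1:19124143-19124232 and chr3:21432974-21433063) differs at 3 bases, and the second (chr1:19122432-19122521 and chr3:21431272-21431361) at 23.
MCTP4, most alike: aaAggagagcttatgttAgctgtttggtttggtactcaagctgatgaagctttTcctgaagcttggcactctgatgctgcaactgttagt
MCTP3, most alike: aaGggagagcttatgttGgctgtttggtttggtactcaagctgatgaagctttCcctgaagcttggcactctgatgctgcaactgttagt
MCTP4, least alike: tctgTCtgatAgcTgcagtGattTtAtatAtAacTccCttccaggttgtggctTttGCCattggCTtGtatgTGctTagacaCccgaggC
MCTP3, least alike: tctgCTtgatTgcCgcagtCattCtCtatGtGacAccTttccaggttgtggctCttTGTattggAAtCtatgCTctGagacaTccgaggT
Of 3166 windows of 50 bases in the exons of MCTP4, 11 (0.347%) occur elsewhere in the genome as exact matches on either strand, all of them in MCTP3. Of its windows of 100 bases, 0 of 3116 do.

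MCTP4 transcript fell in mctp4-1, and only 5 genes in all were called. Called means a Benjamini-Hochberg adjusted p under 0.05 in limma, a linear model fitted on log2(FPKM + 1) across all genes and all 16 libraries. MCTP4 (AT1G51570, chromosome 1, 19122161 to 19125375, 1 transcript with 1 exon) was at 23.9, 22.9, 29.2 and 29.4 FPKM in the WT libraries and at 2.55, 5.00, 5.50 and 4.26 FPKM in those of mctp4-1. The groups did not overlap, and every pair of libraries with the same replicate number had the lower value in mctp4-1. The log2 change was −2.39 ± 0.15 (SE), with a limma adjusted p of 5.01e-07, and the mutant mean was 16.4% of the WT mean. An exact permutation test (2-sided, 70 arrangements of the libraries) returned p = 0.0286, the smallest it can give. MCTP3 (AT3G57880, chromosome 3) was at 6.07 to 6.61 FPKM in WT and at 5.53 to 8.03 FPKM in mctp4-1, with a log2 change of 0.04 and a 95% interval from −0.19 to 0.27. The mctp4-1 libraries thus spread to both sides of WT for MCTP3. In the libraries labelled mctp3-2 it rose to 13.8 ± 1.78 FPKM (SD, n = 4), and in those labelled double to 13.8 ± 0.847 FPKM (limma adjusted p = 3.89e-04 and 2.38e-04 against WT). The MCTP3 transcript thus does not mark a loss in them, and below mctp3-2 and double stand for libraries with those labels.

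The 5 genes called lower were 0.026% of the 19239 tested, and 0 genes were called higher by limma, where 133 genes (0.691%) were higher and 109 (0.567%) lower at an unadjusted p under 0.05. Together these 242 genes are 1.26% of those tested. That is below the share of 0.05 that this cut-off gives on its own in the absence of any change. The main fit has no term for the replicate number, so differences shared by libraries of a number stay in its SE. A gene that was not called is thus not shown to be unchanged. With the replicate number as a block in the fit, 560 genes (2.91%) had an unadjusted p under 0.05 and the same 5 genes (0.026%) were called. Among the called genes, AT4G08093 passed the filter on low values through WT alone. In 88 genes (0.457%) all 4 mctp4-1 libraries lay below all WT libraries, and in 110 (0.572%) above. In 819 genes (4.26%) mctp4-1 was lower in every numbered pair, and in 1493 (7.76%) higher. Most genes moved little. The median log2 change was 0.03, with 11667 genes (60.6%) above 0, and the middle 95% of genes lay between −0.26 and 0.30. The median SE of a gene's change was 0.141, and the smallest called change was 0.80 in size. A change of more than 1 on the log2 scale was seen in 46 genes, 4 of them called.

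**Figure D1:**
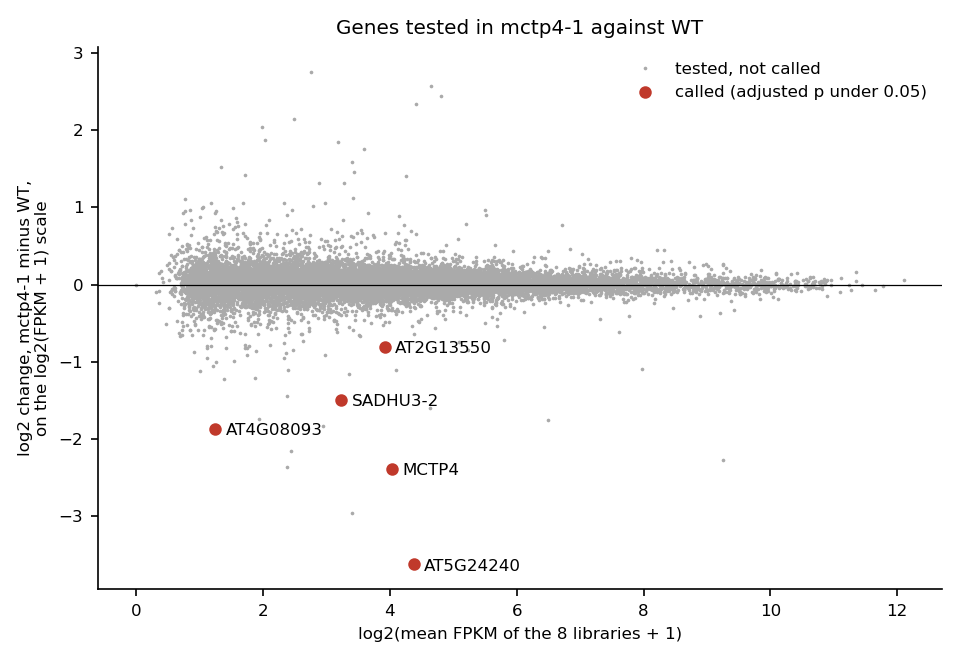
Log2 change of each gene tested (mctp4-1 minus WT, vertical axis) against log2 of its mean FPKM plus 1 over the 8 libraries (horizontal axis). Grey points are the genes not called and red points the 5 called genes, all below 0, with AT5G24240 lowest at −3.62.

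Total FPKM per library ran from 905373 to 1016221, with 18584 to 18786 genes at 1 FPKM or more. The share of FPKM in genes with no protein-coding annotation was 1.62 to 4.86% in WT and 1.45 to 2.48% in mctp4-1, and the part of this difference in the results was not tested. The libraries fell into 2 sets, replicates 1 and 2 and replicates 3 and 4, in both genotypes. After subtraction of the genotype means, WT and mctp4-1 libraries of the same set correlated at 0.208 to 0.531 across genes, and those of different sets at −0.506 to −0.249. The labels do not say what separates the sets. Within each set, with 2 libraries a group, MCTP4 and AT5G24240 were called, while AT4G08093 (limma adjusted p = 0.212 and 0.0526), SADHU3-2 (0.62 and 0.536) and AT2G13550 (0.886 and 0.536) were not, at log2 changes of −1.82 and −1.90, −1.68 and −1.30, and −0.74 and −0.87. The expected root cell types were present: EXPA7, a root hair expansin gene, was at 38.5 to 45.2 FPKM in WT and 43.7 to 49.3 in mctp4-1, and CASP1, a gene of the Casparian strip in the endodermis, at 214 to 277 and 203 to 263 FPKM.

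AT5G24240 had the largest change of the 5 called genes on the log2(FPKM + 1) scale, an order that depends on the pseudocount. The annotation calls its product a phosphatidylinositol 4-kinase gamma-like protein (chromosome 5, 8230916 to 8234150 on the minus strand, 2 transcripts with 3 exons each). It was at 33.1, 40.9, 33.6 and 41.7 FPKM in WT and fell to 2.48, 2.73, 1.71 and 1.62 FPKM in mctp4-1. All mutant libraries lay far below all WT libraries, and the mutant mean was 5.72% of the WT mean. The log2 change was −3.62 ± 0.16 (SE, n = 4 in each group), with a limma adjusted p of 4.37e-09. In the 4 numbered pairs it was −3.29, −3.49, −3.67 and −4.03. None of its 2259 exon windows of 50 bases (0) occurs elsewhere in the genome as an exact match. Its neighbour AT5G24230 overlaps it by 49 bases on the opposite strand and was at 11.3 FPKM in WT and 11.3 in mctp4-1.

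The same gene was as low in plants that carry no mctp4-1 allele. In the mctp3-2 libraries AT5G24240 was at 2.2, 2.46, 1.50 and 2.03 FPKM, and in double at 2.08, 2.34, 1.23 and 1.89 FPKM. These 3 mutant groups overlapped one another and none overlapped WT. Against WT the mctp3-2 libraries changed by −3.65 ± 0.16 (limma adjusted p = 3.82e-09), in a comparison with 6 called genes (0.0312% of those tested). Between mctp4-1 and mctp3-2 the log2 difference was 0.03, with a 95% interval from −0.30 to 0.37 and an adjusted p of 1 in limma, in a comparison with 5 called genes (0.026%). Adding mctp4-1 to mctp3-2 moved it by −0.09, with an interval from −0.42 to 0.25, where 11 genes were called (0.0572%). The interaction, which is double minus mctp3-2, less the difference of mctp4-1 from WT, was 3.53 ± 0.22 (limma adjusted p = 1.09e-06), 1 of 7 genes called for it (0.0364%). The changes of both single mutants added together would pass the floor of the log2(FPKM + 1) scale. The floor thus helps to set the interaction, and its p is not read here. These comparisons share libraries, WT or mctp3-2, and are set side by side for that reason. AT5G24240 was thus low in both single mutant lines, and whether the alleles or the seed stocks account for it cannot be told apart.

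AT4G08093, annotated as a transcribed pseudogene (chromosome 4, 4990153 to 4991601 on the plus strand), had the same pattern. It was at 3.0, 2.26, 2.77 and 2.83 FPKM in WT and was listed at 0, 0.0417, 0 and 0.0297 FPKM in mctp4-1. It passed the filter on low values through WT alone, so it had to be lower elsewhere. Its p-values against WT are thus no independent evidence of a decrease. The log2 change on the log2(FPKM + 1) scale was −1.86 ± 0.13 (limma adjusted p = 9.13e-07), and a fold is not given since mutant libraries are listed at 0. In mctp3-2 it was at 0.0439, 0, 0.0386 and 0.0919 FPKM and in double at 0.224, 0, 0.0345 and 0.0796 FPKM. None of the mutant groups reached WT, and they overlapped one another. Between mctp4-1 and mctp3-2 it differed by −0.04, with a 95% interval from −0.30 to 0.23 (limma adjusted p = 1). The interaction was 1.92 on the log2 scale, a value that the filter through WT and the floor at 0 help to set, so its p is not read here. None of its 717 exon windows of 50 bases (0) occurs elsewhere in the genome as an exact match. The 6 nearest annotated genes are all pseudogenes, 0 of which passed the filter.

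The sequences just before these 2 genes are shown because their levels moved together over the 4 genotypes. Each is the 250 bases before an annotated transcript start in TAIR10.1, from RefSeq, written in the direction of the gene: chr5:8234151-8234400 on the minus strand for the outer of 2 starts of AT5G24240, and chr4:4989903-4990152 on the plus strand for AT4G08093. Capitals mark matches in either direction to TATAAA (the TATA box), CACGTG (the G-box), TTGACC and TTGACT (W-box forms).
AT5G24240: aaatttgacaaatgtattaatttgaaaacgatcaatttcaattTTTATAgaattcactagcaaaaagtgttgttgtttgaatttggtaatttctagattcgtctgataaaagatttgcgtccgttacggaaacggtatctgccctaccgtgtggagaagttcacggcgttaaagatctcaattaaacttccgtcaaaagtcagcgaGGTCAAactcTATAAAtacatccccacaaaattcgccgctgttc
AT4G08093: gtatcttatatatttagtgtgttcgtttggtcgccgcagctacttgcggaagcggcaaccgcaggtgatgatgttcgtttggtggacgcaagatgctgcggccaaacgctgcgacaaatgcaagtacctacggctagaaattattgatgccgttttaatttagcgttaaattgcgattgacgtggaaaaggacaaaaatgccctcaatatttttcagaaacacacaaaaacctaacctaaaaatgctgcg
The first holds 2 matches to TATAAA and 1 to TTGACC, and the second holds 0 matches to any of the 4. Among 27443 windows of this length before annotated genes, 47.3% hold TATAAA, 12.2% TTGACC, 19.1% TTGACT and 6.49% CACGTG. The GC content is 36.0% and 43.6%. The pair shares none of the motifs searched, and a match is a run of letters, not a bound site.

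**Figure D2:**
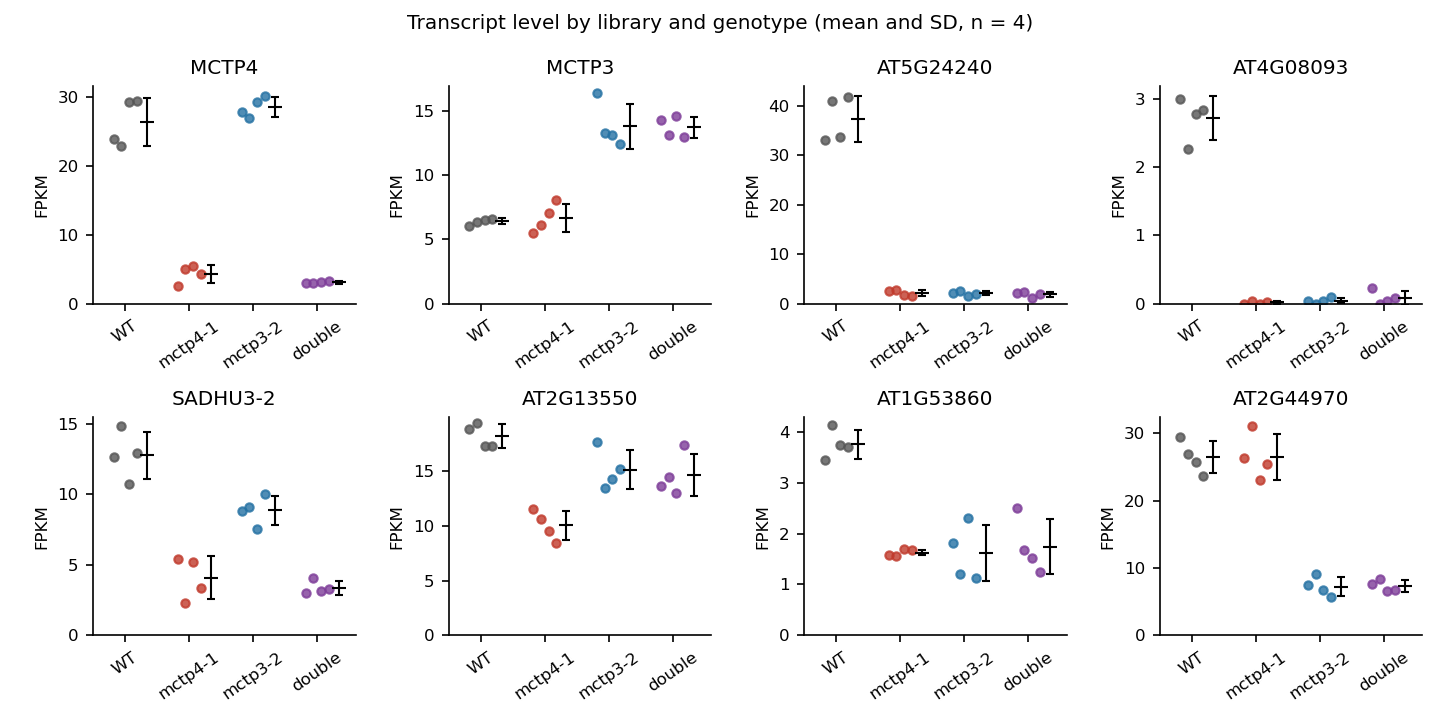
FPKM (vertical axes, from 0) of 8 genes in the 4 libraries of each genotype (points, by colour), with the mean and SD in black. AT5G24240, AT4G08093 and AT1G53860 are low in all 3 mutant groups, MCTP4 and SADHU3-2 are lowest in the 2 groups that carry mctp4-1, and AT2G44970 is low in the 2 groups that carry mctp3-2.

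SADHU3-2 (AT3G42658, chromosome 3, 14749400 to 14750294) belongs to the Sadhu elements, short retroposons of Arabidopsis that are known to vary in expression and DNA methylation between accessions. It was at 12.6, 14.8, 10.7 and 12.9 FPKM in WT and fell to 5.43, 2.25, 5.21 and 3.35 FPKM in mctp4-1. The groups did not overlap, and the mutant mean was 31.8% of the WT mean. The log2 change was −1.49 ± 0.18 (limma adjusted p = 0.0027), with pair values from −2.28 to −0.92. In double it was at 2.99 to 4.06 FPKM, a change of −1.66 ± 0.18 from WT (limma adjusted p = 2.69e-04), in a comparison with 30 called genes (0.156%). In mctp3-2 it was at 8.83 ± 1.03 FPKM (SD, n = 4), between WT and mctp4-1 and overlapping neither. Its difference from WT there, −0.48, was not called (limma adjusted p = 1), and neither was that of mctp4-1 from mctp3-2, −1.01 (adjusted p = 0.175). The double libraries were lower than those of mctp3-2 by a called difference, −1.17 ± 0.18 (limma adjusted p = 0.0211). None of its 846 windows of 50 bases (0) occurs elsewhere in the genome as an exact match on either strand, but diverged copies of the element were not searched. The call was lost when only the WT and mctp4-1 libraries entered the fit, without the replicate block (adjusted p = 0.182 in limma) or with it (0.4). It was also lost in the blocked fit without WT replicate 2 (0.0563) or mctp4-1 replicate 4 (0.0647).

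AT2G13550, annotated as an uncharacterized protein (chromosome 2, 5648329 to 5649847 on the minus strand), had the smallest of the called changes. It was at 18.9, 19.4, 17.3 and 17.3 FPKM in WT and at 11.6, 10.6, 9.58 and 8.47 FPKM in mctp4-1. The groups did not overlap, and the pair values, −0.66, −0.82, −0.79 and −0.95, were close to each other. The log2 change was −0.80 ± 0.11 (limma adjusted p = 0.00976), and the mutant mean was 55.2% of the WT mean. In double, which also carries mctp4-1, it was at 14.6 ± 1.93 FPKM, and in mctp3-2 at 15.2 ± 1.81 FPKM (SD, n = 4). Both of those groups lay above mctp4-1 in every library. Neither differed from WT by a called amount (limma adjusted p = 0.952 and 1), and double differed from mctp4-1 by 0.50, with a 95% interval from 0.26 to 0.74 (limma adjusted p = 0.23), in a comparison with 12 called genes (0.0624%). The interaction was 0.75 ± 0.16 and was not called (limma adjusted p = 0.547). The gene AT2G13555 overlaps it by 504 bases on the opposite strand and has no row in the matrix; whether counting used the strand is not given in the sources used here, so reads of the 2 genes may not be separated. The call was lost in limma without WT replicate 1 (adjusted p = 0.0593), WT replicate 2 (0.0621), mctp4-1 replicate 3 (0.0631) or mctp4-1 replicate 4 (0.0515), and with only the WT and mctp4-1 libraries (0.131). The blocked fit without WT replicate 2 lost it as well (adjusted p = 0.0563 in limma).

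AT1G53860, annotated as a remorin family protein (chromosome 1, 20107017 to 20109665), was low in all mutants but was not called in mctp4-1. Remorins are plant proteins of plasma membrane nanodomains, and some act at plasmodesmata. It was at 3.45, 4.14, 3.75 and 3.71 FPKM in WT and at 1.59, 1.57, 1.69 and 1.67 FPKM in mctp4-1. The groups did not overlap and the mutant mean was 43.4% of the WT mean, with a log2 change of −0.85 ± 0.16 and a limma adjusted p of 0.191. It was at 1.13 to 2.32 FPKM in mctp3-2 and at 1.25 to 2.51 FPKM in double, with changes of −0.89 (limma adjusted p = 0.0984) and −0.81 (0.0581). The block gave adjusted p = 0.132 for mctp4-1, 0.0529 for mctp3-2 and 0.0229 for double. AT2G44970 is a contrasting case: it was at 23.7 to 29.4 FPKM in WT and 23.1 to 31.1 in mctp4-1, but at 5.65 to 9.05 FPKM in mctp3-2 and 6.63 to 8.37 in double. Its change in mctp4-1 was −0.00, with a 95% interval from −0.27 to 0.27, and mctp4-1 lay above mctp3-2 by 1.75 ± 0.13 (limma adjusted p = 2.35e-06).

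The genes beside MCTP4 on chromosome 1 stayed near WT, and none was called. Of the 5 annotated genes on each side, 7 of 10 were tested. AT1G51560 lies 123 bases beyond one end of MCTP4 and was at 9.17, 11.9, 9.36 and 10.8 FPKM in WT and at 12.8, 13.1, 10.8 and 12.9 in mctp4-1. AT1G51580, 208 bases beyond the other end, was at 7.42, 6.66, 7.49 and 8.73 FPKM in WT and at 8.45, 9.08, 9.04 and 11.2 in mctp4-1. Both were higher in every numbered pair, with overlap between the groups, by 0.25 ± 0.11 and 0.28 ± 0.11 on the log2 scale (unadjusted p = 0.0395 and 0.0255; limma adjusted p = 1 for both). In double they differed from WT by 0.33 and 0.24 and were not called. The other 5 neighbours tested lay between 0.02 and 0.20. Of the neighbours of the other called genes, 3 on each side, 7 were tested (3 for AT5G24240, 2 each for AT2G13550 and SADHU3-2) and 0 called, with log2 changes from −0.01 to 0.11. None of these neighbours was low in mctp4-1 beside its called gene.

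The MCTP family was otherwise near WT. Of 16 family members in the list, 12 were tested, and the 4 others did not exceed 0.719 FPKM in any WT or mctp4-1 library. Besides MCTP4, 11 members had a median log2 change of 0.04, with 9 above 0 and 0 called, against 0.03 and 60.6% above 0 over all genes. QKY, which acts in organ shape and cell fate signalling at plasmodesmata, was at 8.69 to 10.2 FPKM in WT and 9.35 to 10.6 in mctp4-1 (log2 change 0.09). FTIP1, which helps to move the flowering signal FT into the phloem, was at 6.81 to 9.53 and 7.30 to 10.1 FPKM (0.03). AT5G12970 had the lowest value, −0.22, at 7.88 to 9.71 FPKM in WT and 7.0 to 7.97 in mctp4-1, which overlap (unadjusted p = 0.0452, limma adjusted p = 1). AT5G48060 had the highest, 0.15. The 95% intervals of the 11 members lay between −0.43 and 0.59, and none reached 1 in size.

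The other phosphatidylinositol 4-kinase genes did not share the low level of AT5G24240. Of the 12 in the list, 10 were tested, and besides AT5G24240 the log2 changes ran from −0.08 for AT1G64460 to 0.17 for PI4KGAMMA7, with 8 of 9 above 0 and 0 called. PI4KBETA1, which makes phosphatidylinositol 4-phosphate at the trans-Golgi network, was at 21.3 FPKM in both groups. PI4KGAMMA4 was at 26.0 ± 3.91 FPKM in WT and 28.0 ± 3.55 in mctp4-1 (SD, n = 4). The 95% intervals of these 9 genes lay between −0.46 and 0.74.

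**Figure D3:**
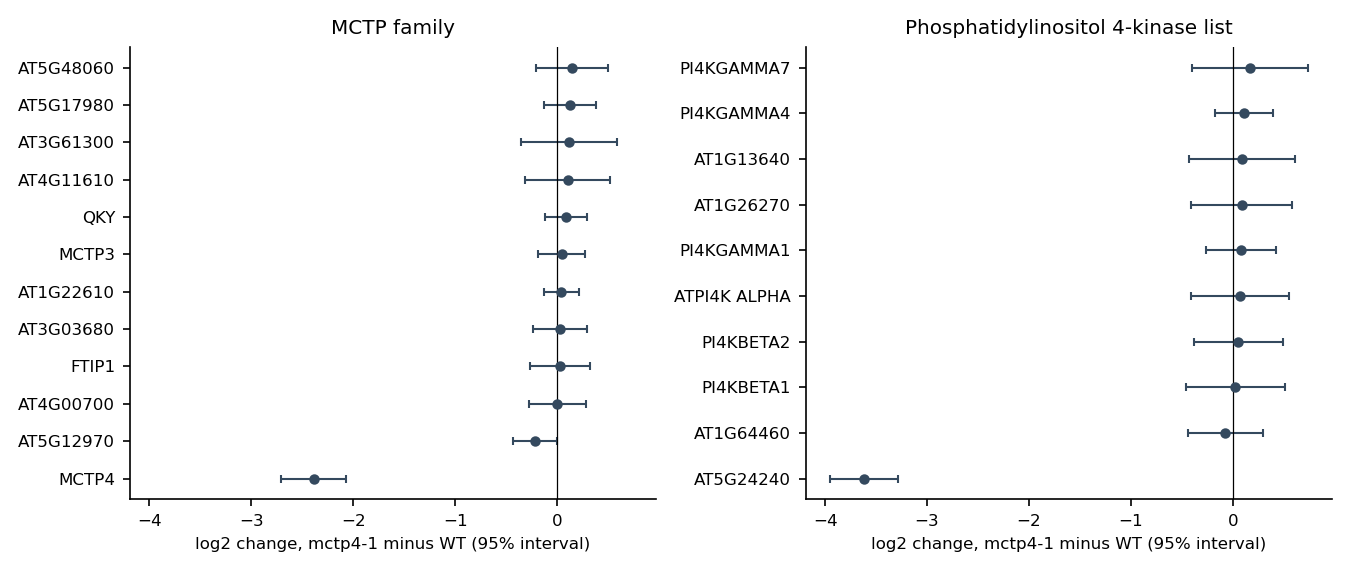
Log2 change (mctp4-1 minus WT, horizontal axis) with its 95% interval for the 12 tested members of the MCTP family and the 10 of the phosphatidylinositol 4-kinase list. MCTP4 at −2.39 and AT5G24240 at −3.62 lie apart, and the other members run from −0.22 to 0.17.

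The remaining genes with the largest changes were not called. Among those with an unadjusted p under 0.05 and groups that do not overlap, the next decreases were AT3G09280 (−1.16), the noncoding RNA AT4G04223 (−1.11), AT5G33390, a glycine-rich protein gene (−1.06), and the noncoding RNA AT4G14548 (−0.91). AT4G04223 was at 16.8 to 26.8 FPKM in WT and 6.98 to 11.1 in mctp4-1, at 3.65 to 7.18 FPKM in mctp3-2 and at 22.7, 72.1, 18.6 and 40.3 FPKM in double. Both single mutants lay below every WT library, while double overlapped WT and did not differ from it by a called amount (0.57 ± 0.33, limma adjusted p = 1). Its interaction was called, at 3.65 ± 0.46 (limma adjusted p = 0.00355). AT4G04223 was named for its decrease in mctp4-1, which is part of the interaction, so this p is no independent evidence. AT4G14548 was at 6.44 to 13.4 FPKM in WT and 2.97 to 5.90 in mctp4-1, with a mean of 3.62 FPKM in double. The 10 largest increases ran from 0.57 for AT1G34490 to 2.04 for AT1G19394. AT1G19394 was listed at 0 in 3 WT libraries and at 1.86 FPKM in the other, and at 2.1 to 12.8 FPKM in mctp4-1. AT1G63390, annotated as a flavin-containing monooxygenase of the glucosinolate oxygenase kind, was at 0 to 0.655 FPKM in WT and at 1.19 to 4.29 in mctp4-1 (log2 change 1.52 ± 0.38, unadjusted p = 0.00101, limma adjusted p = 1). No WT library reached 1 FPKM, so AT1G63390 passed the filter on low values through mutant libraries, and its p is not read here. IGMT2, which methylates indole glucosinolates, was at 2.55 to 4.79 FPKM in WT and 4.96 to 7.95 in mctp4-1 (0.59). The other increases were AT5G09670 (1.46), AT1G04295 (1.05), AT1G56555 (1.01), AT1G70885 (0.78), AT5G07842 (0.62) and AT5G05435 (0.58). Of these, AT1G04295 and AT1G56555 were also higher in mctp3-2 than in WT, by 0.90 and 0.935. AT5G09670 and AT1G70885 differed there by 0.60 and 0.18, and none of these mctp3-2 differences was called. AT1G56555, at 0 to 0.627 FPKM in WT, passed the filter on low values through mutant libraries.

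Across 35 gene lists, 428 genes were tested, and 3 of them were called: MCTP4, AT5G24240 and AT4G08093. Another 11 had an unadjusted p under 0.05, so 14 in all did (3.27%, against 1.26% of all genes); the lists hold genes chosen with results of these data known, called genes among them. The list medians ran from −0.15 to 0.27, and in 14 lists the median had opposite signs in replicates 1 and 2 and in replicates 3 and 4. No list other than those with the called genes holds a called member, so the values that follow are given as measured.

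Of 20 xylem markers, 17 were above 0, as were 17 of 20 cell cycle genes, against 60.6% of all genes. The xylem median was 0.14. This median was 0.13 in the first set of replicates (1 and 2) and 0.11 in the other, and by pair 0.107, 0.121, −0.013 and 0.192. MYB46, a master regulator of secondary wall formation, was at 4.96, 4.85, 3.65 and 4.21 FPKM in WT and at 6.70, 7.45, 5.25 and 7.02 in mctp4-1. Its groups did not overlap (log2 change 0.49 ± 0.15, unadjusted p = 0.00473, limma adjusted p = 1). MYB83, its close relative, had −0.34. Of the cellulose synthases of the secondary wall, CESA4 had 0.22, CESA7 0.14 and CESA8 0.18, and the peptidase gene XCP1, which clears the contents of dying vessel cells, 0.21 (unadjusted p = 0.0218). Of 17 phloem markers, 10 were above 0, near the share over all genes, with a median of 0.04. They ran from −0.09 for APL, a regulator of phloem identity, to 0.34 for SEOR2, a sieve element filament gene (limma adjusted p = 1 for both). SUC2, the sucrose carrier of companion cells, had −0.05.

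No marker of the other root cells was called. All 5 root cap markers lay below 0, at a median of −0.15 (−0.20 in replicates 1 and 2, −0.05 in replicates 3 and 4). Among them SMB, a regulator of root cap maturation, had −0.15 and the cellulase gene CEL5 −0.18. Their summed level was 83.5 to 113 FPKM in WT and 65.2 to 108 in mctp4-1, which overlap. Of 15 genes for suberin, the waxy layer of the endodermis, 14 lay below 0 at a median of −0.06, and the regulator MYB41 above it at 0.38; in replicates 3 and 4 the median was 0.03. In the endodermis list, 5 of 10 were above 0, and MYB36, which switches on Casparian strip genes, was at 12.7 to 16.2 FPKM in WT and 16.8 to 19.0 in mctp4-1 (0.24, unadjusted p = 0.0172, limma adjusted p = 1). Medians were 0.03 for 12 root hair genes, 0.05 for 10 genes of the stem cell niche and 0.05 for 20 cell cycle genes.

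The lists for channels and contact sites gave no called gene. Of 13 genes for plasmodesmal proteins, 8 lay above 0, with a median of 0.03. PDLP8, a receptor-like plasmodesmal protein gene, had the highest value, 0.27 (unadjusted p = 0.0548). Of 11 callose synthase genes, whose product narrows the channels, 10 lay above 0 at a median of 0.11, which was 0.28 in replicates 1 and 2 and −0.04 in replicates 3 and 4. Of 13 genes for proteins that shape the endoplasmic reticulum or its contact sites, 7 lay above 0, and SYT4 had the highest value, 0.23. Of 13 aquaporin genes of the plasma membrane, 10 lay above 0; PIP2B did not overlap between groups, at 809 to 890 FPKM in WT and 893 to 928 in mctp4-1, with a log2 change of 0.13.

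None of the nutrient and hormone genes was called. AT5G03545, known as AT4, a target mimic RNA made under phosphate starvation, was at 266, 243, 251 and 246 FPKM in WT and at 311, 330, 363 and 364 in mctp4-1. Its groups did not overlap, and every pair was higher in mctp4-1 (log2 change 0.44 ± 0.10, unadjusted p = 2.99e-04, limma adjusted p = 0.822). In double it was at a mean of 514 FPKM. PAP17, a phosphatase gene of the same response, had 0.50 (unadjusted p = 0.0231), and 15 of 18 phosphate genes lay above 0 at a median of 0.08. BHLH38, a regulator of iron uptake, had 0.41 and GH3.1, which conjugates auxin to amino acids, 0.34 (unadjusted p = 0.0161 and 0.0129; limma adjusted p = 1 for both). The iron list had 15 of 20 above 0 at a median of 0.11, and the auxin response list 16 of 20 at 0.10. OPR3, an enzyme gene of jasmonate synthesis, was at 28.0 to 29.6 FPKM in WT and 24.3 to 27.7 in mctp4-1 (−0.16, unadjusted p = 0.0499), and SAG101, an immune signalling gene, had 0.46 (0.0363). Medians were 0.13 for cytokinin, 0.09 for ethylene, 0.05 for immunity, 0.06 for abscisic acid and cold, 0.02 for copper, −0.02 for nitrate, 0.12 for sulfur, 0.04 for auxin transport and 0.10 for jasmonate genes.

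The touch and wound list and the photosynthesis list had medians of opposite sign in the 2 sets of replicates. All 14 touch and wound genes lay above 0, at a median of 0.27, but the median was −0.20 in replicates 1 and 2 and 0.73 in replicates 3 and 4. By pair it was −0.713, 0.297, 0.665 and 0.643, so only pair 1 lay below 0. ZAT10, a zinc finger gene that responds within minutes to handling, had −1.95 in pair 1 and 1.06, 1.25 and 1.98 in pairs 2 to 4. CAF1A, a deadenylase gene, had −2.12, 1.39, 1.27 and 2.1. Photosynthesis genes, markers of green tissue, had 3 of 16 above 0 and a median of −0.10, which was 0.20 in replicates 1 and 2 and −0.46 in replicates 3 and 4. RBCS1A, of the small subunit of Rubisco, had 0.09, 0.37, −0.82 and −1.76 in the 4 pairs. The summed green tissue level was 393 to 572 FPKM in WT and 316 to 650 in mctp4-1, and its part in other results was not tested. All 11 genes of the unfolded protein response lay above 0, by 0.03 to 0.18, and 1 of them was above 0 in every pair. Medians were 0.07 for heat shock, 0.01 and 0.06 for morning and evening clock genes, and 0.09 and −0.07 for aliphatic and indole glucosinolate genes.

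**Figure D4:**
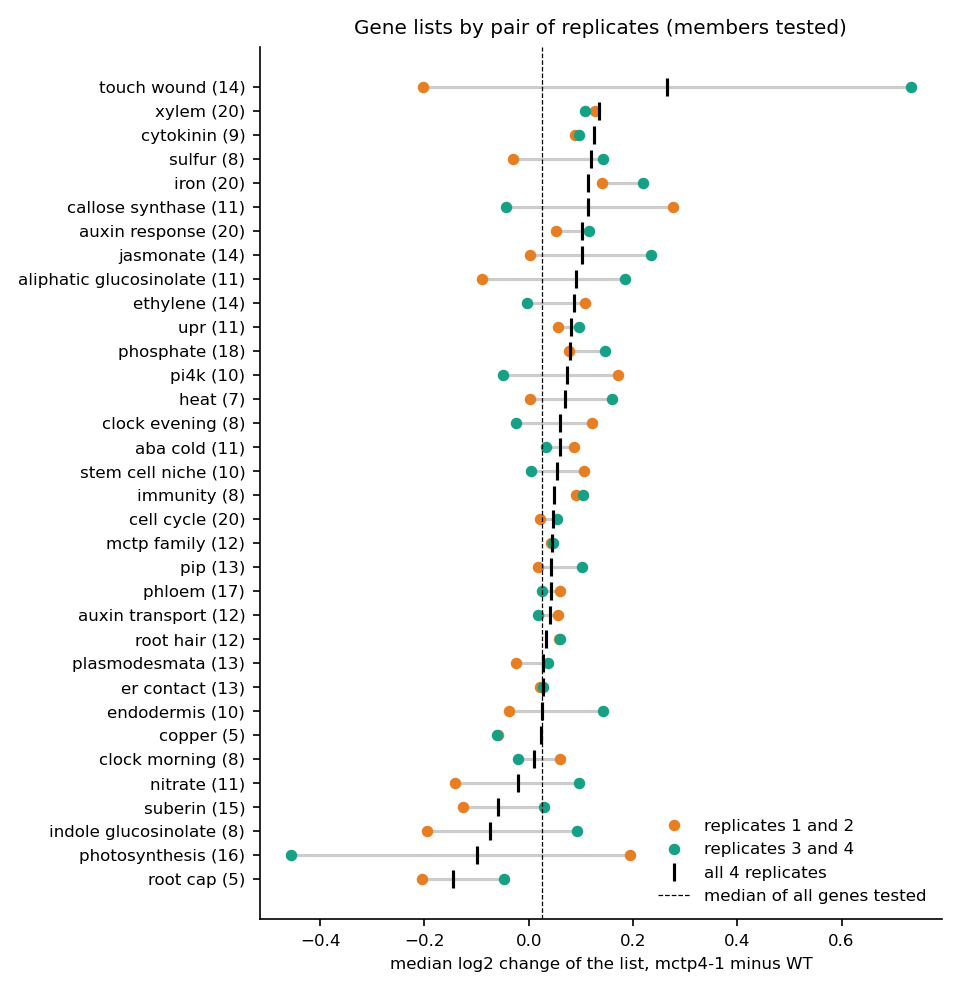
Median log2 change (mctp4-1 minus WT, horizontal axis) of each gene list, with the number of members tested in brackets, in replicates 1 and 2 (orange), replicates 3 and 4 (green) and all 4 (black bar), against the median of all genes, 0.03 (dashed). The touch and wound list and the photosynthesis list spread widest, from −0.20 to 0.73 and from 0.20 to −0.46. In the labels upr is the unfolded protein response, pip plasma membrane aquaporins, and er contact the genes of the endoplasmic reticulum and its contact sites.

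A further list holds 22 genes that an earlier analysis of these libraries called in double. AT5G24240 and AT4G08093 were also called in mctp4-1 against WT, and the other 20 were not called there. In mctp3-2 against WT, AT5G24240 and AT4G08093 were called as well (limma adjusted p = 3.82e-09 and 1.21e-06). The list is therefore no independent evidence of a direction. MRD1 was at 0.399 FPKM in WT, 0.167 in mctp4-1 and 15.1 in double, and HOL2, a methyltransferase gene, at 0.331, 0.222 and 11.8 FPKM. WRKY46, an immune transcription factor gene, was at 0.348, 0.942 and 4.01 FPKM, with a log2 change of 0.49 in mctp4-1 (limma adjusted p = 1). AT2G41650 was at 344, 334 and 134 FPKM, and the glucosinolate enzyme gene MAM1 at 11.8, 12.9 and 5.60 FPKM. In this list 13 of 22 genes lay above 0 in mctp4-1, at a median of 0.10.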

How the data were processed

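The authors deposited FPKM per gene for 16 libraries, 4 per genotype, from polyadenylated RNA; per the submitters' processing notes HISAT2, Cufflinks and the TAIR10 build were used; the sources used here give no versions, no parameters and no use of the strand. Library size and transcript length were thus already divided out. Whole reads could not be recovered (11 to 35.6% of low values fell on steps of whole reads, within 0.02 on the log2 scale), so depth is unknown and no count test was run. Columns were matched to libraries by name, with 0 left over.

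FPKM under 1e-06 were set to 0. Genes that reached 1 FPKM in 4 or more libraries were tested with limma 3.58.1 in R 4.3.3 on log2(FPKM + 1), a scale that understates changes of weakly expressed genes: 1 mean per genotype over 16 libraries, mean-variance trend, robust moderation, 2-sided, Benjamini-Hochberg adjusted p under 0.05. The script was tested on simulated data. The members and gene lists were chosen with earlier results of these data known. Named genes are MCTP3, MCTP4, called genes, the 10 largest increases and decreases at an unadjusted p under 0.05 without overlap of groups, members of the MCTP, kinase and double lists, up to 4 members with the smallest p of other lists, and neighbours of MCTP4; other list members are examples chosen after their values were seen. The contrasts with mctp3-2, the interaction and the neighbours of other called genes were added after seeing the data.

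The pairing rests on shared numbers in the labels and on the values: WT and mctp4-1 libraries of the same number correlated at 0.439 to 0.531 in their deviations from genotype means, above the limit of 0.1, but those of other numbers in the same set (1 and 2, or 3 and 4) also did, at 0.208 to 0.524. Of 33560 genes, 32826 matched the RefSeq annotation of TAIR10.1, from which positions and sequences come. Coding sequences were aligned with Biopython 1.88.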

Additional observations from a re-analysis of the deposited data

Results flagged for a closer look

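In 6 of the named genes the difference between plants with and without mctp4-1 was itself different with and without mctp3-2, by the limma interaction, which called 7 genes in all. AT5G24240 had 3.53 (adjusted p = 1.09e-06) and was low in every mutant group, but the floor of the scale helps to set this value, so its p carries no weight. AT4G04223 had 3.65 (adjusted p = 0.00355) and was low in both single mutants, with double at 18.6 to 72.1 FPKM. It was named for its decrease in mctp4-1, which is part of the interaction, so its p is no independent evidence. AT4G08093 had 1.92 (adjusted p = 6.34e-05), but it passed the filter through WT alone and was near 0 elsewhere, so its p carries no weight. MRD1 had 3.88 (adjusted p = 2.2e-05), HOL2 3.47 (2.04e-05) and AT2G41650 −1.05 (0.0103). These last 3 came from the list of genes called in double on these libraries, and MRD1 and HOL2 passed the filter through double alone, so their p-values are no independent evidence.

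Single libraries stood apart from the other 3 of their group, by a gap beyond Dixon's 95% critical value, in 20 of 394 groups of 4 libraries over 197 genes; chance gives about 5% of groups. In WT replicate 4, AT3G09280 was at 18.9 FPKM (others 10.4 to 11.7), AT1G34490 at 1.26 (0.631 to 0.651) and AT5G48060 at 3.99 (2.52 to 2.71). In WT replicate 3, AT1G19394 was at 1.86 FPKM (others listed at 0) and HSP17.4 at 0.47 (1.05 to 1.12). In WT replicate 2, FEZ was at 2.25 FPKM (2.67 to 2.72), CSD2 at 173 (210 to 217) and AT3G08490 at 3.95 (2.54 to 2.67). In WT replicate 1, JKD was at 20.7 FPKM (22.3 to 22.6). In mctp4-1 replicate 1, AT1G19394 was at 12.8 FPKM (2.1 to 3.36), PI4KGAMMA1 at 2.21 (1.37 to 1.41) and PDCB3 at 14.2 (6.45 to 7.53). In mctp4-1 replicate 2, SMXL4 was at 4.55 FPKM (3.56 to 3.73) and AT1G51538 at 0.0252 (others listed at 0). In mctp4-1 replicate 3, AT4G04223 was at 6.98 FPKM (10.5 to 11.1), MYB36 at 19.0 (16.8 to 16.9), ARR5 at 53.8 (36.4 to 39.1), AT3G08490 at 3.13 (4.18 to 4.38) and AT1G51560 at 10.8 (12.8 to 13.1). In mctp4-1 replicate 4, PCNA2 was at 59.1 FPKM (48.1 to 49.5).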

How the results depend on the processing

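The count of 5 called genes moved to 3 with only the WT and mctp4-1 libraries in the fit and to 3 in the blocked fit without WT replicate 2. The count moved to 3 within replicates 1 and 2 (1 of them higher, and 2 of them among the main 5) and to 2 within replicates 3 and 4. These last 2 fits have fewer libraries. The count was 5 with the replicate block, 6 with the block and 8 libraries (4 of them among the main 5) and 6 without a filter (1 of them higher). It was 4 at FPKM of at least 5, 5 under other pseudocounts and scalings, and 4 to 5 without single replicates (3 to 6 with the block, added after seeing the data). Over 28 alternatives MCTP4 and AT5G24240 were called in 28, AT4G08093 in 25 of 27, SADHU3-2 in 22 and AT2G13550 in 20. Their log2 changes kept their direction in all, over −2.63 to −2.20, −4.09 to −3.39, −4.59 (pseudocount of 0.1) to −1.82, −1.70 to −1.24 and −0.87 to −0.71. AT4G08093 passed the filter through WT alone, so its calls and its direction here are no independent evidence. The replicate block changed no other call in mctp4-1 against WT. Among named genes that were not called, 109 of 5148 values moved by more than the SD between pairs, and 61 of 910 list medians. Depth is unknown, so no value has a counting interval.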
